A study of Mus musculus with 2 samples.

Results

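The genes followed here are Runx1 and Runx1t1, the loci whose human counterparts are joined in the AML1/ETO fusion, Cbfb, the cofactor of the RUNX proteins, and 7 blood transcription factors, Cebpa, Spi1, Myb, Myc, Lmo2, Tal1 and Fli1. They were taken by symbol, and all 10 were found once each among the 31053 genes of the files. The cells were GFP+Lin-c-Kit+ splenocytes of mice bearing AE9a leukemia, in which a truncated AML1/ETO fusion is expressed from a retrovirus. Single-cell RNA sequencing compared 2 libraries, 1 per group, to ask what changes when 1 allele of Usp18 is removed from established leukemia. Each library held 1 pool of cells from 3 mice, with 8000 cells targeted.

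In both groups the leukemia cells came from Usp18+/f UBCER-Cre fetal liver cells transduced with a retrovirus carrying AE9a and GFP, and had been transplanted into C57BL/6 recipients aged 8 to 12 weeks. The Usp18+/f-labelled library came from recipients injected with oil, and the Usp18+/Δ-labelled library from recipients injected with tamoxifen. The sort took place 3 days after the first injection. The Cre is driven by the ubiquitin C promoter and is therefore not restricted to a cell type. With 1 pool per group, mice within a pool cannot be told apart, there is no replicate spread, and every ratio below compares these 2 libraries and not the conditions in general. No test was run. Intervals are 95% intervals for counting error alone.

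RUNX1 binds DNA through its Runt domain, and CBFβ, which does not bind DNA itself, strengthens that contact. RUNX1T1, also called ETO or MTG8, is a corepressor scaffold that recruits histone deacetylases, and the fusion brings it to RUNX1 sites. PU.1, the product of Spi1, and C/EBPα direct the granulocyte and monocyte fates, FLI1 is an ETS factor of stem cells and megakaryocytes, and TAL1 and LMO2 sit with GATA factors and LDB1 in a complex of stem, erythroid and mast cells. MYB maintains progenitors, and MYC drives growth and ribosome production.

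Runx1 and Tal1 each start at more than 1 promoter. Counts of 3′ ends add up all starts of a gene, so the level of either gene cannot be divided between its promoters. The 250 bases before both Runx1 starts are shown because Runx1 was the most abundant of the 10 genes, those before the first Tal1 start because its gene belongs to the same regulator circuit, and those of Cebpa because it gave almost no transcript. They are RefSeq sequences of build GRCm38.p6, the assembly mm10, read 5′ to 3′ on the strand of the gene. The distal Runx1 window is chr16:92826075-92826324 on the minus strand, the proximal one chr16:92697330-92697579 on the minus strand, the Tal1 window chr4:115056176-115056425 on the plus strand and the Cebpa window chr7:35119043-35119292 on the plus strand. The span of Runx1 given below reaches 92826149, so part of the distal window, set by its RefSeq start, lies inside that span. The proximal window lies wholly inside it. Capitals mark exact matches, on either strand, to short letter strings known from binding sites. The string searched for RUNX proteins was TGTGGT. For the erythroid and mast cell GATA factors it was AGATAA. The E-box of MYC and its partners was searched as CACGTG. For PU.1 the string was GAGGAA.
Runx1 distal: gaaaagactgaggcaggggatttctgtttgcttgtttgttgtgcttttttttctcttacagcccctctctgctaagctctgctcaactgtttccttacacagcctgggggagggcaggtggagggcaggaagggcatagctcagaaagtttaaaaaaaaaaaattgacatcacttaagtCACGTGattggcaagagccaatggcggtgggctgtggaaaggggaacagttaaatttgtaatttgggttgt
Runx1 proximal: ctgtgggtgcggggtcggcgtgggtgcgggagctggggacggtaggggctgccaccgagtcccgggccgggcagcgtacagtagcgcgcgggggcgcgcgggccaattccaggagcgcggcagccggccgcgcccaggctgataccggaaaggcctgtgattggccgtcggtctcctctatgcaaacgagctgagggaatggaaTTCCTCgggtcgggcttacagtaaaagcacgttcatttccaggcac
Tal1 first: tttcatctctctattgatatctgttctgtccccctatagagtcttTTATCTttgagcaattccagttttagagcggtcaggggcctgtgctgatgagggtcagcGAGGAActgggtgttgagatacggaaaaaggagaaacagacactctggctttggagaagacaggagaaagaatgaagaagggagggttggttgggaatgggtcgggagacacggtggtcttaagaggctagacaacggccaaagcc
Cebpa: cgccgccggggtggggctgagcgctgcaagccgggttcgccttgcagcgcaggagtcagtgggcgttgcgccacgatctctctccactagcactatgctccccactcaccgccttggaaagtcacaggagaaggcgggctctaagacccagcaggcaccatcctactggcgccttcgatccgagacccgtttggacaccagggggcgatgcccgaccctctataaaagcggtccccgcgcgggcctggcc
The distal Runx1 window held 1 E-box match and the proximal one 1 PU.1 match, on the strand opposite to the gene. The Tal1 window held 1 GATA match, likewise on the opposite strand, and 1 PU.1 match. The Cebpa window held no match to the 4 motifs, nor did the window before the second Tal1 start, chr4:115057561-115057810, which is not printed. Of 32851 windows of the same length before RefSeq starts, 14.0% held the RUNX letters, 9.99% the GATA letters, 6.02% the E-box letters and 23.3% the PU.1 letters. The matched letters did not overlap one another in the printed windows, and a match is a description of the sequence only. Windows were found for 5 of the 10 genes.

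The Usp18+/f-labelled and Usp18+/Δ-labelled libraries held 7281 and 7833 barcodes with 63690481 and 65146263 unique molecular identifiers (UMIs), of which 15 barcodes occurred in both. After filtering, 6561 and 7073 cells with medians of 8575 and 8021 UMIs remained. Levels are given as CPM, a gene's UMI sum over kept cells scaled to a library total of 1000000, and carry no term for transcript length. Kit was at 96.6 and 102 CPM, whereas Ptprc, which encodes the pan-leukocyte antigen CD45, had 9 and 14 UMIs in all. The granule genes Mpo and Elane and the granulocyte receptor gene Csf3r had 0 to 3 UMIs per library in cells labelled as acute myeloid leukemia. Of the other myeloid target genes, Itgam had 1 and 5 UMIs, whereas there were 290 and 380 UMIs for Ctsg, 82 and 61 for Prtn3, 262 and 232 for Ms4a3, 462 and 509 for Csf2ra, 101 and 100 for Cd68 and 10 and 18 for Csf1r. Summed markers of T cells, B cells and megakaryocytes were at 3.16 CPM or less, those of NK cells at 7.13 and 17.4 CPM and those of neutrophils at 0.241 and 23.0 CPM, with 5 of 7 neutrophil markers at 0 in the Usp18+/f-labelled library. Macrophage markers summed to 4.49 and 8.97 CPM. Erythroid markers summed to 4222 and 4367 CPM, mast cell markers to 1531 and 1649 CPM and progenitor markers to 1004 and 1039 CPM, with Flt3 at 0. Most of the progenitor sum came from Cd47, at 762 and 778 CPM, and Spn, at 139 and 142 CPM. Cd34, of the same list, was at 6.14 and 16.3 CPM, a log2 ratio of 1.41 (1.23 to 1.59). Single mast cell genes differed in both directions, with Mcpt1 at 180 and 82.0 CPM, Mcpt2 at 98.3 and 59.3 CPM, Cpa3 at 101 and 190 CPM and Fcer1a at 174 and 265 CPM, and their part in the member ratios was not tested. Usp18 mRNA itself went against the labels, at 5.69 CPM in the Usp18+/f-labelled library and 24.1 CPM in the other, so directions are given by the labels. Isg15, an interferon-stimulated gene, was at 21.1 and 115 CPM, and cells with a high summed level of such genes numbered 52 and 778. USP18 is known to restrain interferon signalling, its gene is itself induced by interferon, and counts of 3′ ends need not cover the floxed part of the gene.

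Of these genes 9 were expressed and Cebpa was not detectable above the floor. Runx1 (ENSMUSG00000022952, chr16:92601466-92826149, minus strand, mm10) stood first, with 32993 UMIs or 567 CPM (561 to 573) in the Usp18+/f-labelled library and 32041 UMIs or 539 CPM (533 to 545) in the Usp18+/Δ-labelled library. It was the 203rd most abundant gene in the former. Its cofactor gene Cbfb (chr8:105170674-105217989) was at 84.8 CPM (82.4 to 87.2) and 76.7 CPM (74.5 to 79.0). Runx1 UMIs thus outnumbered those of Cbfb several fold in both libraries. Runx1t1 (chr4:13743436-13893649), the other fusion partner locus, was the lowest of the expressed genes, with 1374 UMIs or 23.6 CPM (22.4 to 24.9) and 2002 UMIs or 33.7 CPM (32.2 to 35.2). The counts are of reads assigned to mouse loci, and whether transcripts of the retroviral fusion add to the Runx1 or Runx1t1 counts was not tested.

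Among the regulators of the myeloid and ETS group, Fli1 (chr9:32422204-32542861, minus strand) was at 82.3 CPM (80.0 to 84.6) and 77.9 CPM (75.6 to 80.2). Spi1 (chr2:91082390-91115756) was at 51.0 CPM (49.2 to 52.8) and 56.3 CPM (54.4 to 58.2). Both were thus present in cells in which Cebpa (chr7:35119293-35121928), the gene of the granulocyte regulator C/EBPα, had 1 UMI in the Usp18+/f-labelled library and 0 UMIs in the other. With no UMI seen a level of up to 3 UMIs is possible, or 0.0505 CPM in the Usp18+/Δ-labelled library and 0.0516 CPM in the Usp18+/f-labelled library, so both libraries were at or under this floor and no ratio is given. Myb (chr10:21124935-21160984, minus strand) came second of the 10, at 237 CPM (233 to 240) and 226 CPM (223 to 230).

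Myc (chr15:61985391-61990374) was at 146 CPM (143 to 149) and 126 CPM (123 to 129). Lmo2 (chr2:103957986-103981878), the bridging LIM-only protein gene, was at 146 CPM (143 to 149) and 127 CPM (124 to 130). Tal1 (chr4:115056426-115071755), the helix-loop-helix partner of the same complex, was at 116 CPM (113 to 119) and 111 CPM (108 to 114). In the order of levels, Runx1, Myb, Lmo2, Myc, Tal1, Cbfb, Fli1, Spi1, Runx1t1, the intervals of neighbours overlapped within each library for Lmo2 and Myc and for Cbfb and Fli1, and for no other neighbours. The order was the same in both libraries except that Fli1 stood above Cbfb in the Usp18+/Δ-labelled library. The genes that overlap members on the opposite strand had at most 28 UMIs in a library.

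**Figure D1:**
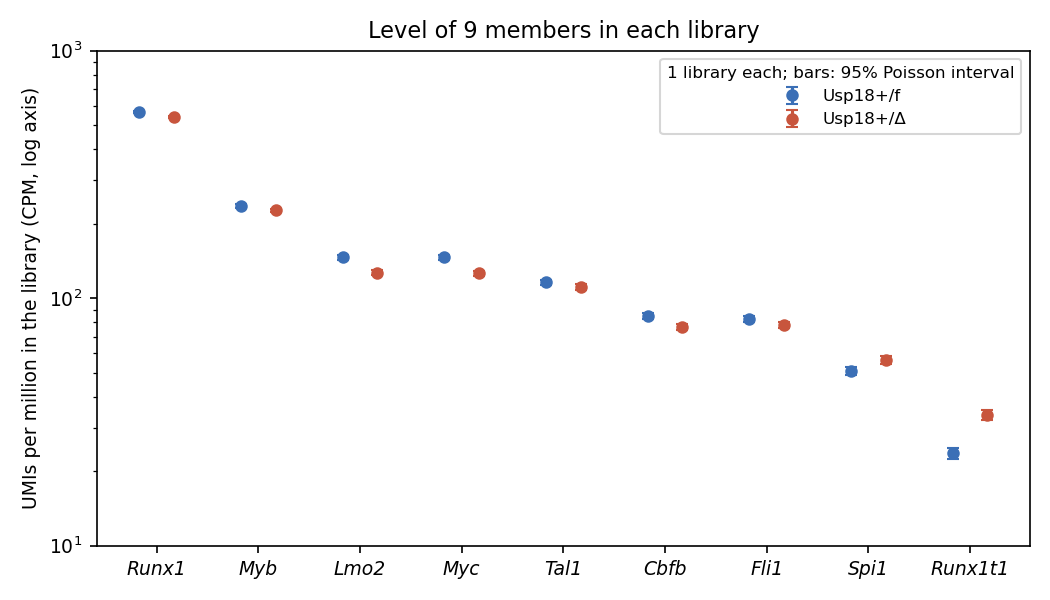
Level of the 9 expressed genes in the Usp18+/f-labelled library (blue) and the Usp18+/Δ-labelled library (red), as CPM on a log axis with 95% Poisson intervals. Runx1 stands above the others at 567 and 539 CPM, and Runx1t1, the lowest at 23.6 and 33.7 CPM, is the gene whose points lie farthest apart between libraries.

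By the share of cells with a UMI, Runx1 and Myb again stood first, and Spi1 and Runx1t1 last of the expressed genes. When each cell was thinned to 3000 UMIs, which kept 6104 and 6723 cells, Runx1 was seen in 77.1% (76.0 to 78.1) and 75.4% (74.3 to 76.4) of cells, or unthinned in 93.8% and 94.1%. Myb was seen in 49.4% and 47.2% of thinned cells. Runx1t1 was seen in 6.24% (5.65 to 6.88) and 9.16% (8.48 to 9.88) of thinned cells, and without thinning in 15.1% and 19.7%. Spi1 reached 14.5% (13.6 to 15.4) and 16.2% (15.3 to 17.1), and Cebpa 0 of 6104 and 0 of 6723 thinned cells. The remaining 5 genes lay between 20.8% and 34.6%. A median of 3 of the 10 genes was seen per thinned cell in each library, with a maximum of 8. Cluster 9, described with the clusters, was led by neutrophil and macrophage genes but also held Kit at 114 and 86.9 CPM, Tal1 at 171 and 99.6 CPM and Myb at 180 and 212 CPM, in 9 and 49 cells. It was therefore not used as a type that lacks these genes, and the share that free RNA would give was not measured.

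Between the libraries, Runx1t1 was the one member whose level passed the size used here to call a difference, a log2 ratio of at least 0.32 in either direction. Its 23.6 and 33.7 CPM give a log2 ratio, Usp18+/Δ-labelled over Usp18+/f-labelled library, of 0.51 (0.41 to 0.61), a 1.43-fold higher level. Of the 8879 genes that averaged 5 CPM or more, 3.51% were higher and 1.1% lower by the call size in the Usp18+/Δ-labelled library, so 1 of 9 members higher and 0 of 9 lower stand beside those shares. Among the 8879 genes, 98.3% had a smaller absolute log2 ratio than Runx1t1. The call for Runx1t1 was present under each of the 12 other choices of cells or scaling, with log2 ratios from 0.45 to 0.94, and was absent only when a 1.5-fold difference was asked for.

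The other genes differed less. Myc had a log2 ratio of -0.21 (-0.26 to -0.17) and Lmo2 one of -0.21 (-0.25 to -0.16). Without cluster 1, described below, the Myc ratio was -0.13. Cbfb was at -0.14 (-0.20 to -0.09), whereas Spi1 was at 0.14 (0.07 to 0.21). Runx1 at -0.07 (-0.10 to -0.05), Fli1 at -0.08 (-0.14 to -0.02), Myb at -0.06 (-0.10 to -0.03) and Tal1 at -0.06 (-0.11 to -0.01) were nearest to 0. The counting intervals lay above 0 for 2 members and below 0 for 7, against 22.9% and 19.4% of all 8879 genes, and the median of the 9 was -0.07 against 0.01 for all genes. Abundant genes have narrow intervals, so these shares also follow the level. When cells were limited to at most 5% mitochondrial UMIs, which left 1015 and 732 cells, the log2 ratio was 0.94 for Runx1t1, -0.46 for Myc and 0.33 for Fli1, so that 3 members passed the call size and Fli1 changed direction, as did Runx1 at 0.05. In that subset cluster 6, a shallow group (medians of 1054 UMIs and a mitochondrial share of 0.892%), held 310 and 44 cells, or 30.5% and 6.01% of cells and 5.70% and 1.04% of UMIs.

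Of the phases, the difference in Myc was largest among cells called as G1. Phases were called from S and G2M gene scores on cells thinned to 3000 UMIs, and G1 is the class with neither score raised. In G1 cells Myc was at 148 CPM (141 to 156) in the Usp18+/f-labelled library and 97.2 CPM (91.7 to 103) in the Usp18+/Δ-labelled library. The ratio was -0.61 (-0.72 to -0.50) in G1, -0.12 (-0.20 to -0.04) in S and -0.14 (-0.20 to -0.08) in G2M, so the intervals in S and G2M lay wholly above the one in G1. Of the 8879 genes, 7.39% were lower by the call size within G1. The make-up of the G1 class differed as well: 53.6% of 1378 G1 cells in the Usp18+/f-labelled library and 71.1% of 1937 in the other belonged to cluster 1, described below, where Myc was low. Within the G1 cells of cluster 1 Myc was at 127 and 74.9 CPM, a ratio of -0.76 (-0.93 to -0.60). Among G1 cells outside clusters 1 and 7, which numbered 517 and 529, it was at 175 and 146 CPM, a ratio of -0.26 (-0.43 to -0.10).

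Runx1t1 was higher in the Usp18+/Δ-labelled library within each phase. It stood at 29.1 and 45.0 CPM in G1, 21.8 and 32.9 CPM in S, and 22.5 and 29.6 CPM in G2M. The ratios were 0.63 (0.42 to 0.85), 0.59 (0.39 to 0.79) and 0.40 (0.26 to 0.54), with intervals that overlap one another, and each passed the call size. Of all genes tested, 6.89% passed that size upward within G1, 3.57% within S and 3.04% within G2M. Lmo2 had ratios of -0.24 in G1, -0.23 in S and -0.16 in G2M, and Runx1 of -0.16, -0.16 and -0.06. For the remaining genes the 3 within-phase ratios lay between -0.17 and 0.12 and kept the sign of the ratio over all cells.

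**Figure D2:**
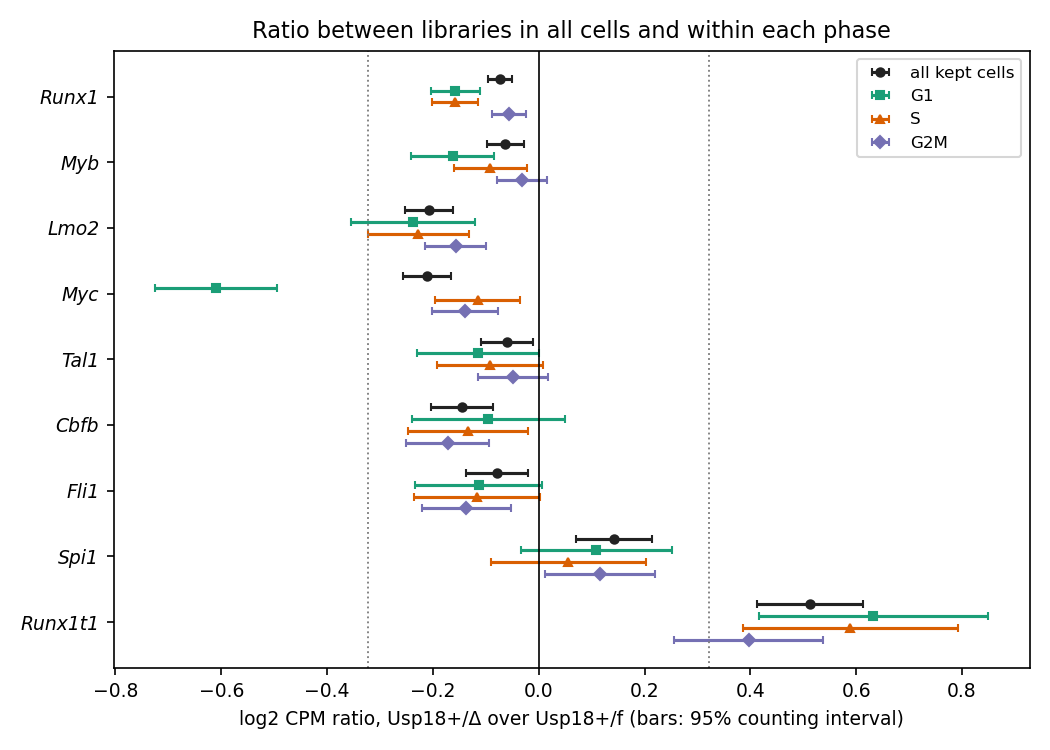
Log2 ratio of CPM, Usp18+/Δ-labelled over Usp18+/f-labelled library, for 9 genes over all kept cells and within G1, S and G2M, with 95% counting intervals and dotted lines at the call size of 0.32. Runx1t1 lies right of the upper line in each phase, and Myc is left of the lower line in G1 alone, at -0.61.

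Cells in G1 made up 22.6% (21.5 to 23.6) and 28.8% (27.7 to 29.9) of the thinned cells, S 26.8% and 26.2%, and G2M 50.6% and 45.0%. None of the 10 genes is among those that scored the phases. Runx1, Runx1t1, Spi1 and Fli1 took a smaller part of the transcripts in S and in G2M than in G1, by the call size or more in both libraries, and Lmo2 took a larger one in G2M. The 2 libraries are not replicates of 1 condition, and both are shown for each gene.

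Runx1 was at 769, 587 and 498 CPM in G1, S and G2M of the Usp18+/f-labelled library, and at 689, 526 and 479 CPM in the other. It was highest in G1 and lowest in G2M in both, with G2M over G1 ratios of -0.63 (-0.67 to -0.59) and -0.52 (-0.56 to -0.49). Spi1 was at 75.9, 49.1 and 44.6 CPM and at 81.8, 51.1 and 48.4 CPM. Its G2M over G1 ratios of -0.77 (-0.90 to -0.63) and -0.76 (-0.87 to -0.64) were the steepest of the 9 genes. Fli1, the other ETS gene, was at 115, 79.0 and 74.6 CPM and at 107, 72.9 and 67.9 CPM, with ratios of -0.63 (-0.73 to -0.52) and -0.65 (-0.75 to -0.55). Runx1t1 had ratios of -0.37 (-0.58 to -0.16) and -0.61 (-0.76 to -0.45). Its S over G1 ratios were -0.41 (-0.65 to -0.17) and -0.45 (-0.63 to -0.28), and with doublets kept the former was -0.28, under the call size.

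Lmo2 went the other way. It was at 126, 128 and 161 CPM in G1, S and G2M of the Usp18+/f-labelled library and at 107, 109 and 144 CPM in the other, flat from G1 to S and highest in G2M, by 0.36 (0.26 to 0.45) and 0.44 (0.35 to 0.53) over G1. Its complex partner Tal1 moved little, with G2M over G1 ratios of -0.09 (-0.18 to 0.01) and -0.02 (-0.11 to 0.07). Cbfb did not follow Runx1, with ratios of 0.13 (0.02 to 0.25) and 0.06 (-0.05 to 0.17). Myb was highest in G1 at 272 and 243 CPM, and its ratios were -0.24 (-0.31 to -0.18) and -0.11 (-0.17 to -0.05).

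Myc peaked in S in both libraries, at 175 CPM (168 to 181) and 161 CPM (155 to 168). Its S over G1 ratios were 0.24 (0.14 to 0.33) and 0.73 (0.63 to 0.83). They fell to 0.05 and 0.19 without cluster 1, and to 0.001 and 0.16 without clusters 1 and 7. The rise from G1 to S was therefore nearly absent in the Usp18+/f-labelled library without these clusters. From G1 to G2M Myc went from 148 to 134 CPM in the Usp18+/f-labelled library and from 97.2 to 121 CPM in the other. The G2M over G1 ratios, -0.15 (-0.24 to -0.06) and 0.32 (0.22 to 0.42), therefore had opposite signs with both intervals clear of 0. Among all 8879 genes 0.248% did so. Without cluster 1 both ratios were negative, at -0.34 and -0.23, and in UMIs per cell both were positive, at 0.56 and 1.08.

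Lower by the call size in both libraries were 4 of 9 members in S and 4 of 9 in G2M, beside 18.6% and 20.4% of all genes. Higher were 0 of 9 in S and 1 of 9 in G2M, beside 20.4% and 20.4%. CPM is a share of a cell's transcripts, and mean UMIs per cell were 1.64-fold and 1.69-fold higher in G2M than in G1. Cluster 1, with a median of 5441 UMIs, made up 53.6% and 71.1% of G1 cells, and its part in that difference was not tested. In UMIs per cell Runx1 was at 5.07, 5.36 and 5.39 in G1, S and G2M of the Usp18+/f-labelled library and at 4.22, 4.63 and 4.96 in the other, so its lower share in G2M came without fewer UMIs per cell. Spi1 was at 0.500 and 0.483 UMIs per cell in G1 and G2M of the Usp18+/f-labelled library and at 0.501 and 0.501 in the other, whereas Lmo2 was at 0.828 and 1.74 and at 0.653 and 1.49. On that scale the G2M over G1 ratios turned upward for Fli1, to 0.087 and 0.11, and for Runx1t1, to 0.34 and 0.15. Cluster 1 also bore on these results. Without it Spi1 and Fli1 alone remained lower by the call size in both S and G2M in both libraries, Runx1 had G2M over G1 ratios of -0.490 and -0.3205, the latter under the exact call size of 0.3219, and Runx1t1 turned to 0.38 and 0.01, while Lmo2 was at 0.36 and 0.18.

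**Figure D3:**
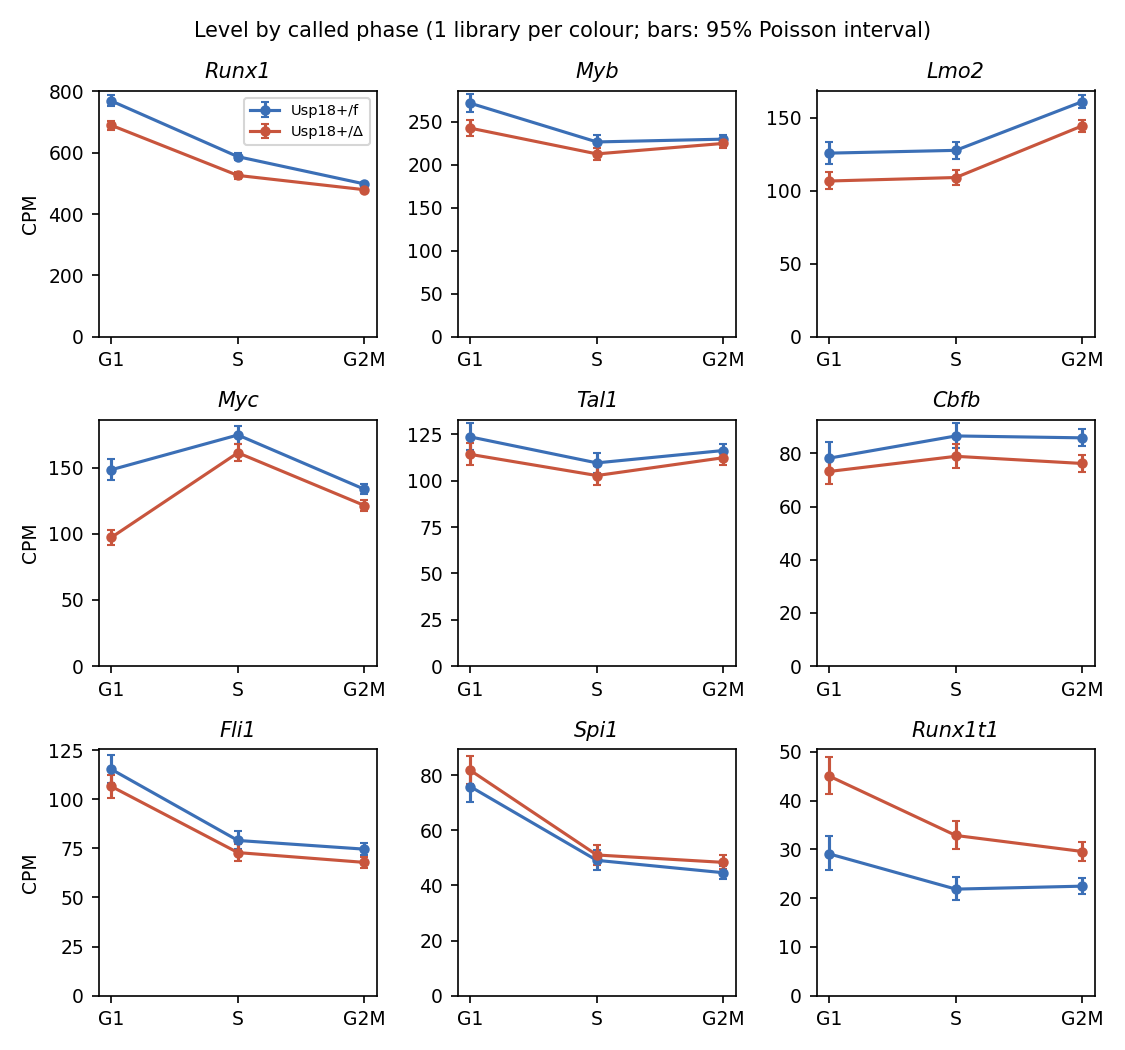
CPM of each gene in cells called G1, S and G2M in the Usp18+/f-labelled library (blue) and the Usp18+/Δ-labelled library (red), with 95% Poisson intervals and axes from 0. Runx1, Spi1 and Fli1 are highest in G1 in both libraries, Lmo2 is highest in G2M, and Myc in G1 is 148 CPM in one library and 97.2 CPM in the other.

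The cells were clustered with the 10 genes, the interferon genes, the phase genes and the sex genes kept from steering the clustering, which gave 10 clusters. No cluster was given a cell type name. Clusters 0 to 5 and 7 had at least 50 cells in each library. Cluster 1, led by Trp53inp1, Cpa3 and Csf2rb2, held 12.8% of cells in the Usp18+/f-labelled library and 24.2% in the other, with 91.7% and 92.4% of its phase-called cells in G1. Cluster 7, led by Ahnak, Klf2 and Tpsab1 with the mast cell proteases Mcpt1, Mcpt4 and Mcpt2, held 173 and 66 cells. Cluster 9, led by S100a9, S100a8 and Camp, held 9 and 49 cells and was too small for the comparison. Clusters 4 and 5, led by Pif1, Prr11 and Cdkn3, Cdc20, were almost wholly G2M, and clusters 0, 2 and 3, led by histone or replication genes, held most S cells.

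Runx1 was highest in cluster 7, at 1046 CPM (980 to 1115) and 1015 CPM (888 to 1154), and next in cluster 1, at 831 and 739 CPM. It was lowest in cluster 2, at 452 and 396 CPM, a range of 2.31-fold and 2.56-fold. Spi1 had the widest range, from 36.1 and 39.2 CPM in cluster 0 to 108 and 114 CPM in cluster 7, or 3.00-fold and 2.91-fold. In both libraries 5 of 9 members, Runx1, Runx1t1, Spi1, Lmo2 and Fli1, ranged at least 2-fold over these clusters, beside 33.5% of the 8879 genes and 27.5% of the 5987 genes at 20 CPM or more. The count was 1 at a clustering resolution of 0.4 and 3 with members and phase genes kept among the variable genes. The order of clusters for Spi1 thus ran with that for Runx1 at the top and not at the bottom. Tal1 was also highest in cluster 7, at 178 and 180 CPM, against 94.8 to 128 CPM in clusters 0 to 5. Lmo2 was lowest there, at 89.5 and 79.1 CPM, and highest in cluster 4, at 180 and 163 CPM.

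The difference in Runx1t1 recurred across clusters. Its level in the Usp18+/Δ-labelled library was higher in 7 of 7 clusters, by log2 ratios from 0.30 to 1.39, and the interval lay above 0 in 6 of them. The ratio of 1.39 (0.30 to 2.43) was that of cluster 7, on 21 and 14 UMIs, and the next largest was 0.66 in cluster 2. In cluster 1 Runx1t1 went from 41.7 to 51.2 CPM and in cluster 2 from 15.3 to 24.2 CPM. Lmo2 was lower in 7 of 7 clusters, with the interval below 0 in 5. Runx1 and Cbfb were likewise lower in 7 of 7, with the interval below 0 in 4 and 3. Myc was lower in 6 of 7, with the interval below 0 in 5. The largest difference was in cluster 7, at 144 and 61.5 CPM or -1.23 (-2.14 to -0.43), on 129 and 14 UMIs. Next was cluster 1, at 126 CPM (117 to 136) against 75.9 CPM (70.4 to 81.7) or -0.74 (-0.89 to -0.58). In cluster 4, of mitotic cells, Myc was at 134 and 137 CPM, a ratio of 0.04 (-0.06 to 0.14). Spi1 was higher in 7 of 7 clusters, with the interval above 0 in 1. Of all genes 5.53% were higher and 5.73% lower in every one of the 7 clusters, beside 2 of 9 and 3 of 9 members.

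**Figure D4:**
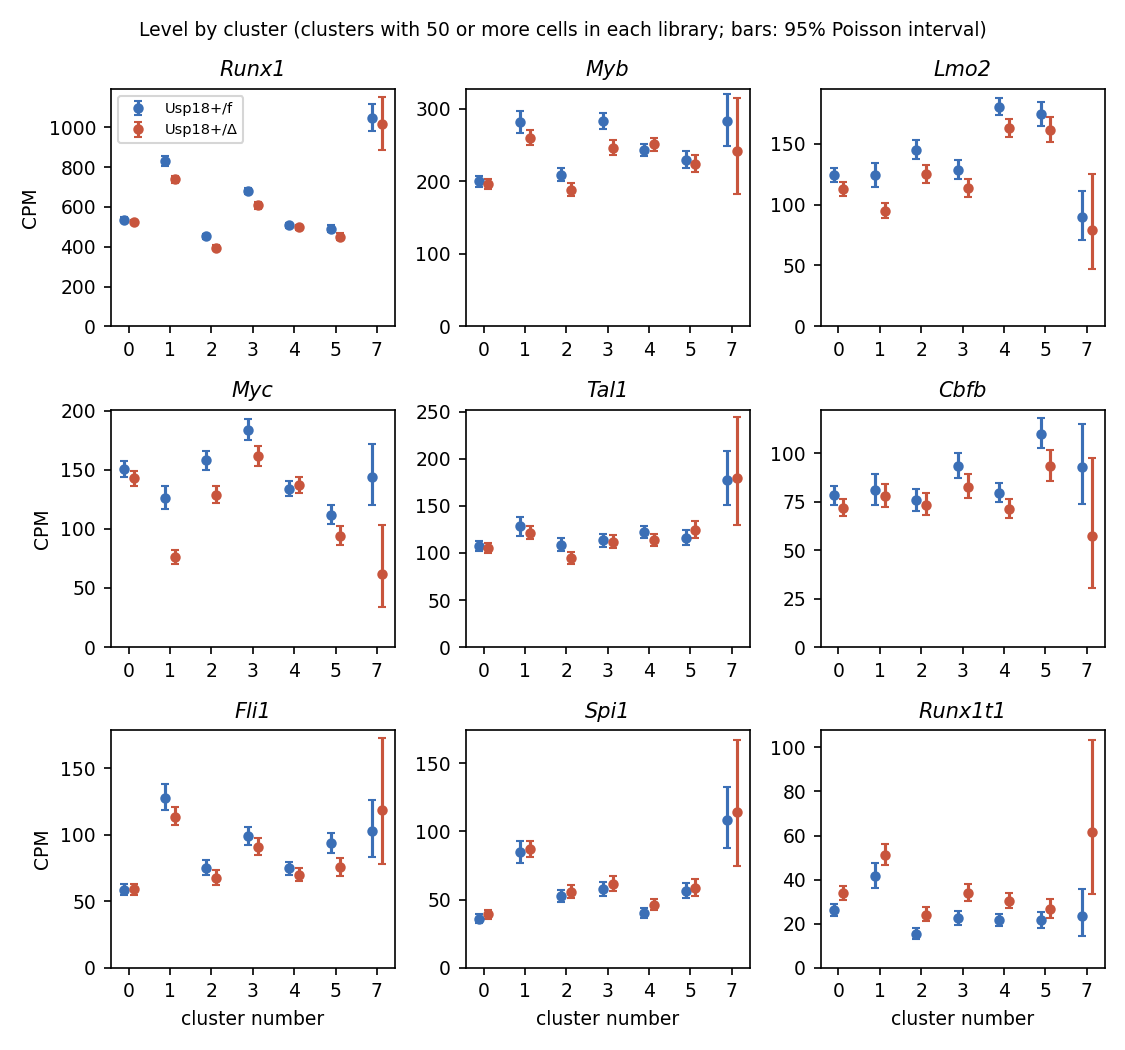
CPM of each gene in the 7 clusters with at least 50 cells in each library, the Usp18+/f-labelled library in blue and the Usp18+/Δ-labelled library in red, with 95% Poisson intervals and axes from 0. Runx1, Spi1 and Tal1 are highest in cluster 7, Myc in cluster 1 is 126 CPM against 75.9 CPM, and the red point of Runx1t1 is the higher one in each cluster.

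Genes that act with these members were taken from 8 lists. Runx3, Gata1, Gata2, Lmo4, Cebpg, Itgam, Prtn3, Ms4a3, Cd68, Csf1r and the list genes named for a phase or within G1 were named after their values were seen. Of 11 genes of the RUNX and ETO families and their corepressors, 1 was higher and 0 lower by the call size in the Usp18+/Δ-labelled library, beside 3.51% and 1.1% of all genes, with a median log2 ratio of 0.04. It was Runx2, at 5.35 and 6.78 CPM or 0.34 (0.13 to 0.56), followed by the coactivator gene Ep300 at 83.6 and 91.3 CPM or 0.13 (0.07 to 0.18). Runx2 was at 0.34 (-0.06 to 0.74) within G1, 0.14 (-0.34 to 0.63) within S and 0.10 (-0.24 to 0.44) within G2M. Of the 11 genes 2 were higher by the call size within G1, Runx2 and Cbfa2t2 at 0.43 (0.02 to 0.85), and 0 within S or G2M. All-gene shares were 6.89%, 3.57% and 3.04%. Cbfa2t3, the ETO family member of erythroid cells, was the lowest of the list at 228 and 201 CPM or -0.18 (-0.22 to -0.15), followed by Hdac3 at -0.13. Among the RUNX genes, Runx3 was at 48.9 and 47.6 CPM, so Runx1 supplied most RUNX UMIs. Within the cycle, Hdac2, Sin3a and Prmt1 were higher by the call size in G2M than in G1 in both libraries, and Runx2 was lower, at -1.10 and -1.33.

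Of 12 measured partners of TAL1 and LMO2, none passed the call size between libraries, and the median was -0.07. The range ran from Gata3, at 101 and 84.6 CPM or -0.26 (-0.31 to -0.20), and Tcf4 at -0.14, to Tcf12 at 0.09 and Zfpm1, at 43.3 and 50.1 CPM or 0.21 (0.13 to 0.29). Gata2, the GATA factor of progenitors and mast cells, was at 204 and 185 CPM, and Gata1, that of erythroid and mast cells, at 142 and 134 CPM. Gata2 was lower in G2M than in G1 by ratios of -0.77 and -0.48, as was Lmo4 at -0.68 and -0.62. Within G1 cells 3 of the 12 partners passed the call size downward between libraries, beside 7.39% of all genes: Gata2 at -0.38 (-0.46 to -0.30), Gata3 at -0.39 (-0.52 to -0.27) and Tcf4 at -0.35 (-0.49 to -0.20). Cluster 1 made up 53.6% and 71.1% of the G1 cells, and the part of that make-up in these ratios was not tested. Tal2 had 1 UMI and 0 UMIs.

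Of the ETS family, 7 of 11 genes reached 5 CPM, none passed the call size, and ratios ran from Elf2 at -0.13 and Gabpa at -0.08 to Etv6 at -0.02 and Elf4 at 0.01. Erg, under the level minimum with 198 and 335 UMIs, was at 3.40 and 5.64 CPM or 0.73 (0.47 to 0.99), and is named here after its value was seen. Spib had 2 and 3 UMIs. Of the C/EBP and other myeloid regulators, 5 of 12 reached the minimum and none passed the call size, from Nfe2 at -0.12 and Gfi1b at -0.07 to Ikzf1 at 0.06 and Cebpb at 16.7 and 19.3 CPM or 0.21 (0.08 to 0.33). Of the C/EBP genes, Cebpg was the most abundant at 43.9 and 43.6 CPM, above Cebpb, and Irf4 had 0 UMIs in each library. Cebpb was higher in S than in G1, at 0.99 and 1.26.

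In the MYC network and MYB family 10 of 13 genes reached the minimum and none passed the call size over all cells. Mxd4 at 0.24 (0.16 to 0.31) and Mybl2 at 0.15 were highest, and Mxd3 at -0.32 (-0.46 to -0.17), just under the call size, and Mxi1 at -0.16 were lowest. MXD proteins compete with MYC for their shared partner MAX. Mycn and Mycl had 0 UMIs in each library, so Myc was the one MYC family gene detected. Of 15 MYC target genes, which serve ribosome production and growth, none passed the call size over all cells, with a median of -0.03 and a range from Eif4e at -0.24 and Nop58 at -0.09 to Cad at 0.13 and Npm1 at 0.16. In both libraries 13 of them were higher by the call size in S than in G1 and 12 higher in G2M than in G1, beside 20.4% and 20.4% of all genes, although Mcm4 is also one of the genes that score S phase.

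Within G1 cells 13 of the 15 MYC targets were lower in the Usp18+/Δ-labelled library, beside 53.1% of all genes, with a median of -0.22 against -0.01 for all genes, and 3 passed the call size, beside 7.39% of all genes: Mcm4 at -0.36, Nop56 at -0.35 (-0.47 to -0.23) and Nop58 at -0.34 (-0.44 to -0.24). Of the TAL1 and LMO2 partners 3 of 12 did so too, as given above. Within S and G2M the medians of the MYC targets were 0.04 and 0.03. Among the G1 cells of cluster 1 the median was -0.10 with 9 of 15 lower, and among G1 cells outside clusters 1 and 7 it was -0.04 with 9 of 15 lower. Of all genes 49.7% were lower in each of these sets of cells, with medians of 0.0017. Lower by the call size were 1 of the 15 targets in the former set and 0 in the latter, beside 7.96% and 8.74% of all genes. The share of cluster 1 among G1 cells, given above, moved with the level of these targets, and its part in the result was not tested.

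Of the myeloid target genes, 3 of 12 reached the minimum. Fcgr3, an Fc receptor gene, was at 9.44 and 19.97 CPM or 1.08 (0.93 to 1.23), and Ctsg at 4.98 and 6.39 CPM or 0.36 (0.13 to 0.58), whereas Csf2ra was at 0.11 (-0.08 to 0.29). The direction for Ctsg differed between phases. It was at 6.28 and 4.97 CPM or -0.34 (-0.89 to 0.22) within G1, at 0.49 (0.02 to 0.97) within S and at 0.47 (0.17 to 0.77) within G2M. Within G1 Fcgr3 was at 28.5 and 61.0 CPM or 1.098 (0.89 to 1.31), within S at 0.32 (-0.05 to 0.68) and within G2M at 0.45 (0.14 to 0.75). It is among the leading genes of cluster 1, which held 12.8% and 24.2% of cells, and the part of that share in the result was not tested. Under the level minimum, and named after their values were seen, Lyz2 had 12 and 88 UMIs or 2.84 (1.97 to 3.85), Irf8 5 and 24 UMIs or 2.23 (0.81 to 3.98) and Cebpd 26 and 11 UMIs or -1.27 (-2.44 to -0.21). Lyz2 is also among the leading genes of cluster 9, which held 9 and 49 cells. Of the stem cell regulators, 4 of 7 reached the minimum with none past the call size, from Hlf at -0.22 and Bcl11a at -0.09 to Zfp36l2 at 0.10 and Hhex at 0.12. Meis1 with 1 and 3 UMIs, Mecom with 3 and 3 and Hoxa9 with 0 and 0 were at or under the floor.

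**Figure D5:**
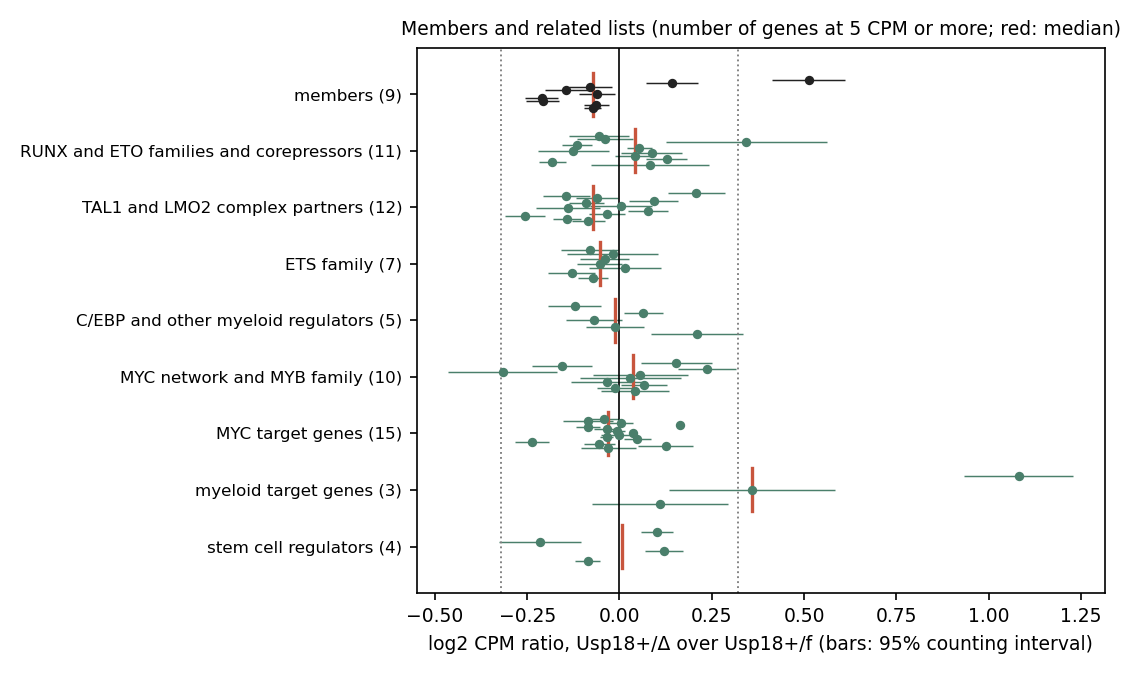
Log2 ratio of CPM, Usp18+/Δ-labelled over Usp18+/f-labelled library, for the members and 8 lists of related genes averaging 5 CPM or more, with 95% counting intervals, list medians in red and dotted lines at the call size of 0.32. Runx1t1, Runx2, Fcgr3 and Ctsg lie right of the upper line, and no gene lies left of the lower one.

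Over 16 pools of cells, each 1 cluster in 1 library with at least 50 cells, the genes whose level was most like each member were sought among 5987 genes, by Pearson's r of log2(CPM + 1). The pools share libraries and cell cycle make-up, so r is a description only. Runx1 was most like Fnbp1 (r = 0.97), Syne1 (0.96) and Pde1c (0.95), and Spi1 most like Plin3 (0.96), Rgs19 (0.96) and Rab4a (0.96). Tal1 was most like AI467606 (0.97), Sfxn3 (0.95) and Gse1 (0.95), and Fli1 most like Adora3 (0.95), Ednra (0.94) and Rhoh (0.93). Runx1t1 was nearest to Alox5 (0.92), Dtnbp1 (0.90) and Chd6 (0.88), and Myb to Optn (0.89), Map4k5 (0.89) and Hspa2 (0.87). Likeness was weaker for Lmo2 with Nelfa (0.87), Hikeshi (0.86) and Hoxc5 (0.86), for Myc with H2afy (0.86), Cdk2 (0.86) and Ndufb2 (0.85), and for Cbfb with Appbp2 (0.85), Aqp9 (0.81) and Pja1 (0.79). No member was among the 3 genes most like another member.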

How the data were processed

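The files hold, per library, raw counts of UMIs per gene and cell barcode as deposited by the authors, who used the 10x Genomics 3′ V3 kit, Cell Ranger 3.0.2 (per the file headers) and build mm10; the submitters' processing notes also name Seurat. The deposited barcodes had at least 500 UMIs. Values start from 31053 genes, of which 30934 matched GENCODE vM21 of that build by identifier.

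The filter kept barcodes with 500 genes or more and no more than 10% mitochondrial UMIs. Scrublet in scanpy 1.11.5 (expected rate 6%) marked 0.0290% and 0.0405% of cells, which is too few for a working call, so the 325 and 333 cells above the 95th percentile of its score were removed. UMIs were summed over kept cells and scaled to CPM. Sums have exact Poisson, shares Clopper-Pearson and ratios exact conditional intervals (95%, scipy 1.17.1), checked on simulated data; UMIs share amplification and capture, so these cover counting error only. With 1 library per group no test was possible. A call is a log2 ratio of 0.32 or more among genes averaging 5 CPM or more. Phases were scored with scanpy on cells thinned to 3000 UMIs, which left out 457 and 350 cells. Clusters used 10000 UMIs per cell, 2000 variable genes, 30 components, 20 exact neighbours and Leiden (leidenalg 0.10.2) at resolution 0.8.

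The members, lists and rules were chosen with earlier results of these data known. Text names all members and, from each list, the 2 highest and 2 lowest ratios, every gene past the call size and genes under the floor of 3 UMIs, and, for likeness, the 3 most similar genes of each member at 20 CPM or more. A few list genes are not reported here, and list counts and medians are without them. Genes outside this rule are said to be so in the text. Alternatives varied the cell filter, doublets, averaging, scaling, phase make-up, thinning, clustering and thresholds.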

Additional observations from a re-analysis of the deposited data

Results flagged for a closer look

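Myc had a log2 ratio of G2M over G1 cells of -0.15 in the Usp18+/f-labelled library and 0.32 in the Usp18+/Δ-labelled library, opposite directions with both counting intervals clear of 0. The difference between the libraries was not tested. G1 cells of cluster 1 were 53.6% and 71.1% of the G1 class, and without that cluster the ratios were -0.34 and -0.23.

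Barcodes above 10% mitochondrial UMIs, which the reported comparisons leave out, numbered 290 and 404. They enter only the alternative with all deposited barcodes, where the Runx1t1 ratio was 0.55. In them Runx1t1 had 9 and 43 UMIs, or 9.15 and 33.4 CPM, a log2 ratio of 1.87 (0.81 to 3.09), so Runx1t1 was higher in the Usp18+/Δ-labelled library in these barcodes as well. Runx1 in these barcodes was at 565 and 585 CPM, a ratio of 0.05 (-0.11 to 0.21). These ratios were not tested against those of the kept cells.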

How the results depend on the processing

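Over 12 alternatives to the comparison of libraries, 92 of 108 member ratios stayed within the counting interval of the reported value, 16 left it, and none of the called ones reversed. The count of members past the call size, 1 as reported, was 3 with at most 5% mitochondrial UMIs, and it was 5 at a fold of 1.1 and 0 at a fold of 1.5. Without cluster 1 the Myc ratio was -0.13. The alternatives that leave out or reweight clusters were chosen after seeing the data. Scaling moved the median of all genes by -0.01 with median-of-ratios size factors and by 0.01 without mitochondrial, ribosomal protein and haemoglobin genes. Dropping the filter on low counts raised the share of genes past the call size from 4.62% to 26.2%, and the myeloid target list median was 0.03 at a minimum of 1 CPM against 0.36. That list had no gene at 20 CPM, so this alternative gave no value.

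For the phases, the count of members past the call size from S to G1 in both libraries, 4 as reported, was 7 at a fold of 1.1, 1 at a fold of 1.5, 2 without cluster 1 and 1 without clusters 1 and 7. The count for G2M, 5 as reported, was 2 at a fold of 1.5, 2 without cluster 1 and 2 without clusters 1 and 7. With doublets kept the S count was 3. Cells in S and G2M hold more UMIs, and in UMIs per cell some directions turned. Spi1 in S, at -0.16 and -0.16, Fli1 in S, at -0.07 and -0.03, and Spi1 in G2M of the Usp18+/f-labelled library, at -0.05, did not. The counts in UMIs per cell were 3 for S, from Cbfb, Myc and Lmo2, and 5 for G2M, from those with Myb and Tal1, all higher. In the Usp18+/f-labelled and Usp18+/Δ-labelled libraries, S over G1 turned to 0.082 and 0.13 for Runx1 and 0.059 and 0.068 for Runx1t1, and G2M over G1 was 0.089 and 0.23 for Runx1, 0.34 and 0.15 for Runx1t1 and 0.087 and 0.11 for Fli1, with Spi1 at 0.00015 in the latter. Runx1t1 also turned without cluster 1, at 0.34 and 0.19 for S and 0.38 and 0.0087 for G2M, and without clusters 1 and 7, at 0.34 and 0.23 for S and 0.38 and 0.049 for G2M. The cause was not tested. The count of members that ranged at least 2-fold over clusters in both libraries, 5 of 9 as reported, was 1 at resolution 0.4, 4 with another seed and 3 with members and phase genes kept.

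No paired analysis was possible because there is only 1 library on either side. Among the expressed members depth limits Runx1t1 most, at 0.209 and 0.283 UMIs per cell.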

Other observations

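Cells with a high summed level of interferon-stimulated genes (ISGs), defined by the 99th percentile in the Usp18+/f-labelled library, more than 13 UMIs at 3000 UMIs per cell, numbered 52 and 778. Within the Usp18+/Δ-labelled library, Spi1 was at 71.1 CPM in the 778 cells and 54.2 CPM in the others, a log2 ratio of 0.39 (0.23 to 0.54). Runx1t1 was at 40.4 and 32.8 CPM, a ratio of 0.30 (0.09 to 0.50), and Runx1 at 598 and 527 CPM, a ratio of 0.18 (0.13 to 0.23). Myc was lower in the ISG-high cells, at 108 against 129 CPM, a ratio of -0.25 (-0.38 to -0.13), and Cbfb was at -0.01 (-0.16 to 0.13). The ratios between libraries over cells that were not ISG-high were 0.49 for Runx1t1, -0.19 for Myc, 0.10 for Spi1 and -0.09 for Runx1. In the Usp18+/f-labelled library, with 52 ISG-high cells, Runx1t1 was at 13.4 against 23.4 CPM, a ratio of -0.80 (-2.43 to 0.43), and Myc at -0.16 (-0.59 to 0.25), with intervals that include 0, whereas Runx1 was at 0.47 (0.30 to 0.64) and Spi1 at 0.67 (0.10 to 1.19). In each comparison both groups of cells come from 1 library, so these are descriptions of these libraries.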
